A study of Mus musculus with 11 samples.

Results

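The main Hist1 cluster is a stretch of mouse chromosome 13 that holds 29 genes for the linker histone H1 and the core histones H2A, H2B, H3 and H4, with 10 other annotated genes between and beside them. It was taken here as the 280 kb between 23.6 and 23.88 Mb of that chromosome (mm9). Every distinct HIV integration site at these positions was counted, whichever library it came from, which gave 1873 of the 831994 distinct sites of the series. The rule used position alone and no measured level. The study mapped HIV integration in mouse embryonic fibroblasts (MEF) of strain C57BL/6 and genotype LEDGF-/-, in which the usual chromatin anchor of the HIV integrase, LEDGF, is missing. For each of the 11 libraries a plasmid coding for another protein joined to the integrase-binding domain of LEDGF (LEDGF-IBD) was electroporated, HIV was added 24 hours later and the cells grew for 3 more days. The NELF group has 4 libraries, 1 for each of NELFE, NELFCD, NELFB and NELFA. The elongation factor DSIF is represented by its large subunit SPT5, with 1 library and thus no replicate. The Integrator group has 6 libraries, for INTS11 and INTS9 of the RNA-cleaving module and for INTS3, NABP2, NABP1 and INIP of the SOSS complexes that join Integrator through INTS3. All groups share the deletion, the fused domain and the virus. A library without a fused protein was not analysed here, so the density that the virus reaches without a tether is not known. The files hold positions and no expression, and the labelled cell type was not checked against marker genes.

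Replication-dependent histone genes are short, mostly lack introns, and are transcribed together in S phase to package newly made DNA. Their messenger RNAs end in a conserved stem-loop in place of a poly(A) tail, and cleavage just after that stem-loop is directed by the stem-loop binding protein and the U7 small nuclear ribonucleoprotein. NELF keeps polymerases paused shortly after they start a gene, and in human cells it has also been linked to the formation of histone messenger RNA ends. SPT5 travels with the polymerase through pausing and elongation. Integrator cleaves nascent transcripts with INTS11 as its nuclease and is known for making the ends of small nuclear RNAs.

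The stem-loops are printed because integration in the cluster was dense on the side of the stop codon. In the lines that follow, the capitals mark the 16-base stem-loop and the lower-case letters the bases after it, 30 bases in all, read on the strand of the gene from the mm9 sequence.
Hist1h1d: GGCTCTTTTCAGAGCCacccacaacctcat
Hist1h1a: GGCTCTTTTCAGAGCCaccaacataactca
Hist1h1t: GGCTCTTTTAAGAGCCacttacatacttct
Hist1h2ae: GGCTCTTTTCAGAGCCattcacttaattca
Hist1h2be: GGCTCTTTTCAGAGCCacccaacagttcaa
Hist1h3c: GGCTCTTTTAAGAGCCacctaagatgtcat
Hist1h3g: GGCTCTTCTTAGAGCCacccatcttccaaa
Hist1h4f: GGCCCTTTTCAGGGCCacccactttgtcat
Hist1h4a: GGCCCTTCTCAGGGCCgcccacattccctg
The form of Hist1h1d, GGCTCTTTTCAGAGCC, lay within 200 bases past the stop codon in 17 of the 29 histone genes and in 37 of 22726 protein-coding genes of the genome (0.163%). The form of Hist1h4f, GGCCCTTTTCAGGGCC, was found in 4 genes of the cluster, and the form of Hist1h3c, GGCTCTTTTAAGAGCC, in 5. Together these letters were present in 26 of 29 genes, against 0.238% of all protein-coding genes, searched on the strand of the gene. The nearest stretch differed from one of these forms by 1 base in Hist1h4a and by 2 bases in Hist1h3g and Hist1h4b. In Hist1h1d the stem-loop began 34 bases after the stop codon, and in Hist1h2af 58 bases after it.

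The 250 bases before the start are shown for the 2 genes nearest to the 1-kb bins with the most sites. Those bins lie past the ends of these genes, so the printed windows are on the other side of the gene. Capitals mark CCAAT and TATAAA on either strand, so that a CCAAT on the other strand reads ATTGG.
Hist1h4d, chr13:23673217-23673466, plus strand: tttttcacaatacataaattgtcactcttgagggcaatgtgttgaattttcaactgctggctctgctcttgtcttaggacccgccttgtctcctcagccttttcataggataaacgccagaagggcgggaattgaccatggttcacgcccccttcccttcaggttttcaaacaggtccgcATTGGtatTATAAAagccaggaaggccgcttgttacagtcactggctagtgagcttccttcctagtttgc
Hist1h3c, chr13:23837472-23837721, minus strand: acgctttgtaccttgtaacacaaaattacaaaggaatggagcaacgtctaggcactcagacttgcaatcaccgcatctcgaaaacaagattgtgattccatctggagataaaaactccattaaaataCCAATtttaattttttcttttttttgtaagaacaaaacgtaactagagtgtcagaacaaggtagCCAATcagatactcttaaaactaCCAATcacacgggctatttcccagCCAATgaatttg
Such a window held CCAAT in 25 of the 29 histone genes, against 34.9% of 22726 protein-coding genes, and TATAAA in 13 of 29 (44.8%), against 12.6%. Within these windows there were 7 integration sites at Hist1h3c, 5 of them from NELF libraries, 1 from SPT5 and 1 from an Integrator library, and 1 site at Hist1h4d, from a NELF library.

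The 3 windows of 200 bases with the most sites all lay downstream of a histone gene. Each capital marks a base that the files list as an integration position on either strand.
Past Hist1h2ae, chr13:23662067-23662266, minus strand: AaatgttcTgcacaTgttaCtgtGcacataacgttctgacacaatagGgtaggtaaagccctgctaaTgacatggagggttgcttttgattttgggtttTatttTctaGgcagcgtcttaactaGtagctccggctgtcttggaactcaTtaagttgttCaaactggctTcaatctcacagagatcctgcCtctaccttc
Past Hist1h3c, chr13:23836353-23836552, minus strand: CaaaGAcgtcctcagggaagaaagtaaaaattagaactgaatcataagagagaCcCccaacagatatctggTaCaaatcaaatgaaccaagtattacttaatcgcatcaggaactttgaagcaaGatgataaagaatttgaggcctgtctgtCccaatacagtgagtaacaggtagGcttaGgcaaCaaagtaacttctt
Past Hist1h2bg, chr13:23664450-23664649, plus strand: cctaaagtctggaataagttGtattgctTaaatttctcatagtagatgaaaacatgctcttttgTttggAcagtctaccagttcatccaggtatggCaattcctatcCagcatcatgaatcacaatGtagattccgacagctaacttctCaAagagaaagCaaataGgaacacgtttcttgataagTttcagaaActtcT
The stretch past Hist1h2ae, 322 to 521 bases after the stop codon, held 18 sites at 15 positions, 14 of them from the 4 NELF libraries, 2 from SPT5 and 2 from Integrator libraries. Past Hist1h3c, 407 to 606 bases after the stop codon, there were 16 sites at 12 positions, with 12 from NELF, 1 from SPT5 and 3 from Integrator libraries. Past Hist1h2bg, 771 to 970 bases after the stop codon, 14 sites lay at 14 positions, with 12 from NELF, 0 from SPT5 and 2 from Integrator libraries.

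Libraries held 18753 to 197069 distinct sites, and levels are given as sites per 100000 sites of the library. Sites spread evenly over chromosomes 1 to 19 and X would give 10.6 sites per 100000 in the cluster. The number of sites in the cluster ranged from 233 to 281 in the NELF libraries, was 225 in SPT5 and ranged from 6 to 212 in the Integrator libraries, so that values of INIP, with 6 sites, are the least precise. Per the read names, the 4 NELF libraries shared a flow cell with no other library, and SPT5 had its own. Flow cell and protein family therefore cannot be told apart, and no within-batch comparison of NELF with Integrator was possible. Each subunit gave 1 library and subunits stand in for replicates, so that p-values measure the spread between subunits, which may be technical. Coding sequences of core histones are near copies of each other, and in mm9 41.4% of coding positions in the cluster start a 36-base stretch that occurs once in the genome, against 88.9% to 98.3% of positions outside them. How the authors treated reads with several equal matches is not given in the sources used here. Counting only sites whose next 36 bases occur once left 28 of 29 histone genes higher in NELF in the gene test described further on.

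NELF libraries integrated in the cluster far more often than Integrator libraries, with SPT5 between the groups. The cluster took 1242 sites per 100000 in NELFE, 652 in NELFCD, 869 in NELFB and 933 in NELFA. SPT5 had 274 sites per 100000 there (95% Poisson interval 239.6 to 313). Among the Integrator libraries the level was 100.2 in INTS11, 54.8 in INTS9, 112 in INTS3, 145 in NABP2, 113 in NABP1 and 24.1 in INIP. All NELF libraries lay above SPT5, and SPT5 lay above all Integrator libraries, as the plot of density by library shows. The mean was 924 ± 244 sites per 100000 in NELF (SD, n = 4) and 91.5 ± 44.1 in Integrator (SD, n = 6), a ratio of 10.1. The difference was 833 sites per 100000, with p = 0.00476 in an exact two-sided permutation test over 210 splits, the smallest p that this design allows. The 95% Poisson intervals, which like all such intervals here cover counting error only, did not overlap between any NELF and any Integrator library: the lowest bound in NELF was 576 in NELFCD, and the highest bound in Integrator was 173 in NABP2.

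**Figure D1:**
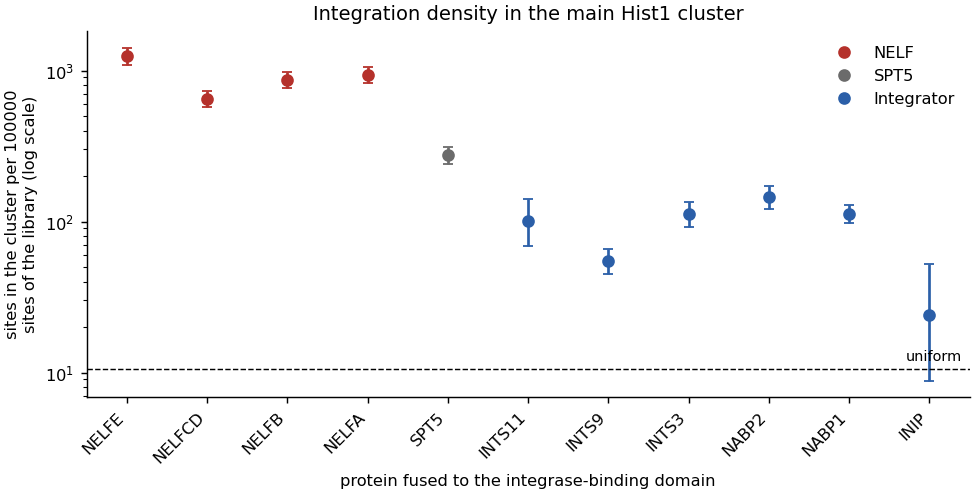
Sites in the main Hist1 cluster per 100000 sites of each library, on a log scale, with 95% Poisson intervals and a dashed line for sites spread evenly over the genome (10.6). The 4 NELF libraries sit between 652 and 1242, SPT5 at 274 and the 6 Integrator libraries between 24.1 and 145.

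Against an even spread over the genome, the cluster was 61.4 to 117 times denser in NELF libraries, 25.8 times in SPT5 and 2.27 to 13.7 times in Integrator libraries. The interval of INIP, 8.84 to 52.4 sites per 100000, included the even level of 10.6, and those of the other libraries did not. The dense stretch ended near its borders. The 280 kb to the left, with no histone gene, held 151 sites over all libraries, and the 280 kb to the right, with 2 histone genes, held 52, against 1873 in the cluster. Per kb, the cluster was 48.9 to 233 times denser than these flanks in NELF, 32.1 times in SPT5 and 1.20 to 14.6 times in Integrator libraries. The NELF libraries had only 2 to 8 sites each in the left flank and 0 to 4 in the right. The ratio of 233, in NELFE, rests on 2 sites to the left and 0 to the right. The second Hist1 cluster, with 24 histone genes spread over 2000 kb of the same chromosome, held 1437 sites. Per kb, the main cluster was 10.44 to 14.99 times denser than the second in NELF, 10.37 times in SPT5 and 3.57 to 8.31 times in Integrator libraries, and this difference between the groups was not tested. These ratios per kb also carry the wider spacing of histone genes in the second cluster. As a whole, the second cluster took 402 to 594 sites per 100000 in NELF, 189 in SPT5 and 48.2 to 125 in Integrator. The main cluster took 652 to 1242 in NELF, 274 in SPT5 and 24.1 to 145 in Integrator. Of the Integrator libraries that were run on 2 flow cells, INTS9 had 54.3 and 58.7 sites per 100000 in the cluster, NABP1 had 126.7 and 96.6, and NABP2 had 150.9 and 130.4.

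The histone genes took sites one by one in the same direction as the whole. Each gene was counted over its annotated extent and 1 kb on each side, and compared by limma's moderated test on log2 of sites per 100000 plus 1, together with all genes of the genome that averaged at least 2 sites per 100000. All 29 histone genes could be tested, and 28 were higher in NELF than in Integrator at an adjusted p under 0.05, 0 were lower and 1 did not pass. Over the genome, 159 of 10363 genes tested (1.53%) were higher in NELF and 62 (0.598%) were lower. The minimum is a mean over all 11 libraries, so that some genes met it mostly through their NELF sites. With no minimum limma called 28 of 29 histone genes higher in NELF, against 0.391% of 26827 genes of the genome. The log2 differences of the 29 genes ran between 1.98 and 4.47 with a median of 3.26, beside a median of -0.05 over all genes tested. In 28 of the 29 every NELF library lay above every Integrator library, against 3.52% of all genes tested. Windows of neighbouring genes overlap and a site then counts for each of them, so that the genes are not independent of each other.

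**Figure D2:**
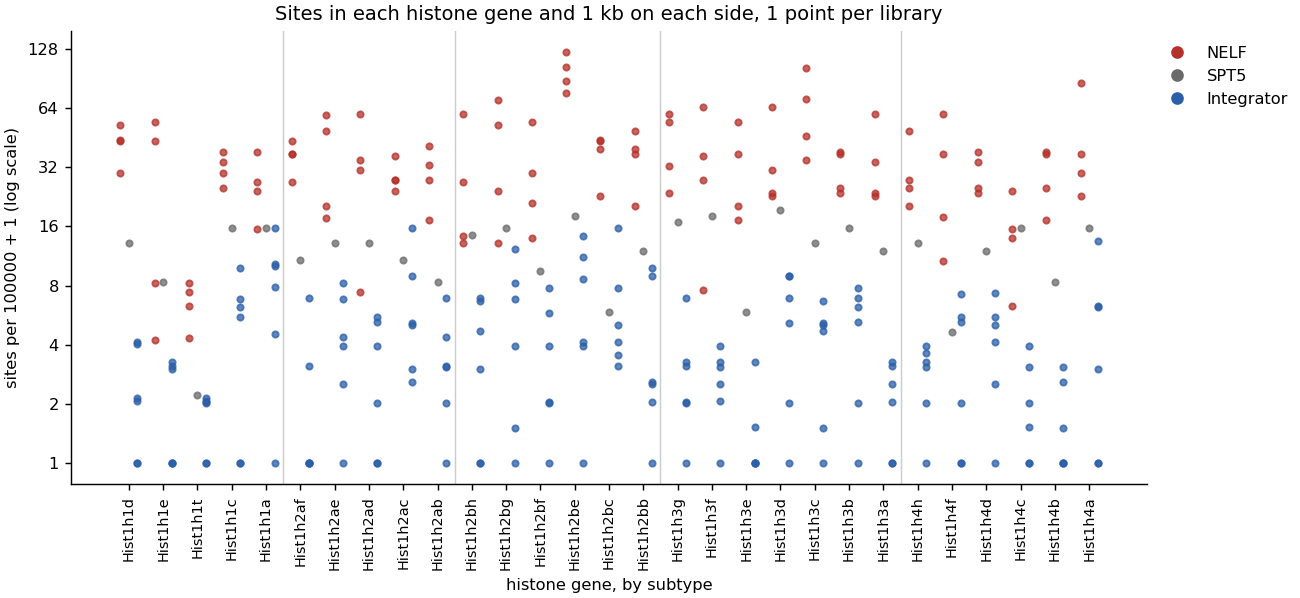
Sites per 100000 plus 1 on a log scale for each of the 29 histone genes with 1 kb on each side, with 1 point per library and vertical lines between the subtypes H1, H2A, H2B, H3 and H4. NELF points (left of each gene) lie above Integrator points (right) in every gene except Hist1h1a, and the points at 1 are libraries with no site.

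Of the genes for linker histone H1, which binds where DNA enters and leaves the nucleosome, 4 of 5 were higher in NELF. Hist1h1d, whose coding sequence lies on the plus strand at chr13:23646959-23647621, had 42.7 sites per 100000 in NELFE, 29.1 in NELFCD, 51.7 in NELFB and 43.2 in NELFA. SPT5 had 12.2 sites per 100000 at this gene, and the Integrator libraries ranged between 0 and 3.11 with a median of 1.10. No NELF value came near an Integrator value, and the log2 difference was 4.35 ± 0.65 (SE, limma adjusted p = 5.38e-08).

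Hist1h1a, the gene for the subtype H1a, at chr13:23855586-23856224 on the plus strand, was the histone gene at which the groups overlapped. It had 37.3 sites per 100000 in NELFE, 14.5 in NELFCD, 25.8 in NELFB and 23.2 in NELFA. SPT5 had 14.6, and Integrator libraries ranged between 0 and 14.7 with a median of 7.98. INTS11, at 14.7, lay just above NELFCD. The means were 25.2 ± 9.40 in NELF (SD, n = 4) and 7.27 ± 5.10 in Integrator (SD, n = 6), with a limma adjusted p of 0.00852. The difference no longer passed without NELFE, NELFB, NELFA or INIP, with limma adjusted p between 0.0506 and 0.109 in those fits. Inside its coding sequence there were 0 sites in the 4 NELF libraries, 2 in SPT5 and 21 in Integrator libraries, of which 4 came from INTS11, 2 from INTS9, 5 from INTS3, 5 from NABP2, 5 from NABP1 and 0 from INIP. A count of 0 over the 121087 NELF sites allows up to 2.48 sites per 100000, taking 3 counts as the limit, and the Integrator libraries together had 3.34. All 36-base stretches in this coding sequence occur once in the genome. On its flanks the mean levels were higher in NELF: the 1 kb upstream had 5.57 sites per 100000 in NELF, 4.88 in SPT5 and 0.26 in Integrator, and the 1 kb downstream had 12.8 in NELF, 6.09 in SPT5 and 2.54 in Integrator. This contrast between the coding sequence and its flanks was noticed in the data and was not tested.

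Inside the coding sequences of the other H1 genes the counts varied. Hist1h1d held 4 NELF sites, all from NELFE, 3 SPT5 sites and 2 Integrator sites, both from INTS3. Hist1h1c held 13 NELF sites inside its coding sequence, 4 SPT5 sites and 14 Integrator sites, which together made 10.7 sites per 100000 in NELF and 2.23 in Integrator. Hist1h1e held 9 NELF, 3 SPT5 and 4 Integrator sites inside its coding sequence, with 7 of the NELF sites from NELFA. Hist1h1t, the testis H1 gene, was the only histone gene of the cluster with no call. It had 5.33 sites per 100000 in NELFE, 7.27 in NELFCD, 6.46 in NELFB and 3.32 in NELFA. SPT5 had 1.22, and Integrator libraries ranged between 0 and 1.13 with a median of 1.03. The NELF libraries were higher in 4 of 4, but the log2 difference of 1.98 ± 0.76 (SE) missed the threshold with a limma adjusted p of 0.161. Its NELF mean, 5.596 ± 1.71 sites per 100000 (SD, n = 4), was the lowest of the 29 genes, although single NELF libraries were as low or lower elsewhere, such as NELFB with 3.23 at Hist1h1e. Its coding sequence held 0 sites in all 11 libraries.

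All 5 genes for H2A, a core histone that pairs with H2B, were higher in NELF. Hist1h2ae, at chr13:23662588-23662977 on the minus strand, had 48.0 sites per 100000 in NELFE, 19.4 in NELFCD, 58.1 in NELFB and 16.6 in NELFA. SPT5 had 12.2 there, and Integrator libraries ranged between 0 and 7.27 with a median of 3.17. NELFE and NELFB were well above NELFCD and NELFA, yet the lowest of them was above the highest Integrator library, with a log2 difference of 3.12 ± 0.57 (SE, limma adjusted p = 1.71e-05). Hist1h2af had 42.7 sites per 100000 in NELFE, 36.4 in NELFCD, 25.8 in NELFB and 36.5 in NELFA, 9.75 in SPT5 and a median of 0 in Integrator, where INTS11 alone reached 5.89. Its log2 difference of 4.42 ± 0.70 (SE, limma adjusted p = 3.33e-07) was the largest of the H2A genes described here. Hist1h2ab, the H2A gene with the lowest mean over all libraries, had 28.7 ± 9.95 sites per 100000 in NELF (SD, n = 4), 7.31 in SPT5 and 2.42 ± 2.05 in Integrator (SD, n = 6).

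All 6 genes for H2B were higher in NELF as well. Over its annotated extent Hist1h2be had the most sites of any gene in the cluster, with 122.6 sites per 100000 in NELFE, 75.1 in NELFCD, 87.2 in NELFB and 103.0 in NELFA. SPT5 had 17.1, and Integrator libraries ranged between 0 and 13.3 with a median of 5.36. This level counts an annotated extent of 37383 bases that spans other features, and 4 histone genes have an annotated extent over 2 kb. Over its coding sequence and 1 kb on each side alone, at chr13:23677448-23677825 on the minus strand, Hist1h2be had a mean of 24.8 sites per 100000 in NELF and 1.40 in Integrator, a log2 difference of 3.67, and by that measure it had the fewest sites of the H2B genes over all 11 libraries. Hist1h2bg had 69.3 sites per 100000 in NELFE, 12.1 in NELFCD, 51.7 in NELFB and 23.2 in NELFA, 14.6 in SPT5, and between 0 and 11.3 in Integrator libraries with a median of 4.39. NELFCD and NABP2 nearly met at this gene. Hist1h2bb had 35.7 ± 11.9 sites per 100000 in NELF (SD, n = 4), 10.97 in SPT5 and 3.49 ± 3.85 in Integrator (SD, n = 6), with a log2 difference of 3.43 ± 0.59 (SE, limma adjusted p = 2.62e-06).

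The 7 genes for H3, the core histone that carries many of the marks of active and silent chromatin, were all higher in NELF. Hist1h3c, at chr13:23836959-23837366 on the minus strand, had 101.3 sites per 100000 in NELFE, 33.9 in NELFCD, 45.2 in NELFB and 69.7 in NELFA. SPT5 had 12.2, and Integrator libraries ranged between 0 and 5.67 with a median of 3.86. The lowest NELF library was well above SPT5 and above all Integrator libraries, and the log2 difference was 4.16 ± 0.53 (SE, limma adjusted p = 1.26e-11). Hist1h3g had 58.7 sites per 100000 in NELFE, 31.5 in NELFCD, 22.6 in NELFB and 53.1 in NELFA, 15.8 in SPT5 and between 0 and 5.89 in Integrator libraries with a median of 1.58. Hist1h3e was the H3 gene with the fewest sites and had the largest log2 difference of the 29 histone genes, 4.47 ± 0.73 (SE, limma adjusted p = 8.11e-07). Its levels were 53.3 sites per 100000 in NELFE, 19.4 in NELFCD, 16.1 in NELFB and 36.5 in NELFA, 4.88 in SPT5, and 0 in 4 of 6 Integrator libraries, with 2.27 in NABP2 and 0.53 in NABP1.

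The 6 genes for H4, the core histone that pairs with H3, were all higher in NELF. Hist1h4a, at chr13:23852718-23853026 on the minus strand, had 85.3 sites per 100000 in NELFE, 21.8 in NELFCD, 29.1 in NELFB and 36.5 in NELFA. SPT5 had 14.6, and Integrator libraries ranged between 0 and 12.5 with a median of 3.61, so that the groups stood apart with a log2 difference of 3.498 ± 0.56 (SE, limma adjusted p = 3.41e-07). Hist1h4f had 58.7 sites per 100000 in NELFE, 17.0 in NELFCD, 9.69 in NELFB and 36.5 in NELFA, against 3.66 in SPT5 and 0 to 6.23 in Integrator libraries. Hist1h4c was the H4 gene at which SPT5 lay within the NELF range: it had 5.33 sites per 100000 in NELFE, 14.5 in NELFCD, 12.9 in NELFB and 23.2 in NELFA, 14.6 in SPT5 and 0 to 2.95 in Integrator libraries with a median of 0.77. Its log2 difference was 2.88 ± 0.73 (SE, limma adjusted p = 0.00852), and without NELFA it missed the threshold at an adjusted p of 0.0678.

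By subtype, with each site within 1 kb given to the nearest coding sequence, a gene for H3 averaged 28.5 ± 11.4 sites per 100000 in NELF, 9.06 in SPT5 and 1.46 ± 0.93 in Integrator (SD, n = 4 and n = 6). A gene for H4 averaged 25.9 ± 10.44 in NELF, 9.55 in SPT5 and 2.01 ± 1.21 in Integrator. A gene for H2A averaged 22.7 ± 4.38 in NELF, 6.34 in SPT5 and 1.86 ± 2.09 in Integrator. For H1 the means were 22.3 ± 7.74 in NELF, 9.02 in SPT5 and 2.75 ± 1.55 in Integrator, and for H2B they were 20.2 ± 5.42 in NELF, 5.89 in SPT5 and 2.29 ± 1.76 in Integrator. The ratio of NELF to Integrator was 19.5 for H3, 12.8 for H4, 12.2 for H2A, 8.82 for H2B and 8.13 for H1. Whether these ratios differ was asked through the share of sites near genes that fell to each subtype. H3 genes took 27.9 ± 3.21% in NELF, 27.2% in SPT5 and 19.3 ± 9.18% in Integrator (adjusted p = 0.298, exact two-sided permutation test over 210 splits, adjusted over 10 share tests). H1 genes took 15.8 ± 1.46% in NELF, 19.4% in SPT5 and 22.1 ± 14.1% in Integrator (adjusted p = 0.561, same test). For H2A, H2B and H4 the adjusted p was 0.561, 0.460 and 0.848. No subtype share passed, and the spread among Integrator libraries was wide: the H1 share was 0% of 3 sites in INIP and 42.4% of 59 sites in INTS9. H1 genes hold 21.9% of the bases counted here, H2A 13.5%, H2B 18.8%, H3 23.4% and H4 22.4%. Coding positions that start a 36-base stretch found once in the genome made up 83.0% in H1 genes. They made up 20.7% in H2A, 24.3% in H2B, 23.6% in H3 and 39.2% in H4. Levels inside coding sequences are thus not directly comparable between subtypes.

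Of the 10 genes that code for no histone, 6 reached the minimum, a mean that includes the NELF libraries, and were tested. Of these 6, 5 were higher in NELF, against 1.53% of all genes tested. They were the long noncoding RNA genes Gm11335 and 4930558J22Rik, the pseudogene Gm11336, a copy annotated as 5S_rRNA and the processed transcript Gm11398, and windows of 1 kb around them reach histone genes. 4930558J22Rik, which overlaps Hist1h4b, had 32.9 ± 9.81 sites per 100000 in NELF (SD, n = 4), 7.31 in SPT5 and 1.32 ± 1.47 in Integrator (SD, n = 6). Gm11336, between Hist1h3c and Hist1h2bb, had 33.8 ± 12.3 in NELF, 12.2 in SPT5 and 2.38 ± 3.40 in Integrator. Gm11335 had 18.6 ± 9.46 in NELF, 10.97 in SPT5 and 1.67 ± 1.28 in Integrator. 5S_rRNA had 21.1 ± 5.59 sites per 100000 in NELF, 8.53 in SPT5 and 4.16 ± 5.52 in Integrator, and its call was lost without NELFB (limma adjusted p = 0.0574). Gm11398, inside the annotated extent of Hist1h2be, had 0 sites in NELFCD and 42.7 per 100000 in NELFE, with 4.88 in SPT5 and 0 to 2.65 in Integrator libraries, and its limma adjusted p of 0.0429 rose above 0.05 in 9 of the 10 fits that left out a library. The predicted coding gene Gm17658 missed the threshold, with 12.97 ± 2.58 sites per 100000 in NELF, 8.53 in SPT5 and 2.26 ± 2.02 in Integrator (limma adjusted p = 0.0512). It passed under 6 of 16 other settings, among them the coding sequence with 1 kb on each side (limma adjusted p = 0.0469), and without INIP (limma adjusted p = 0.0298). Genes away from the histone genes were nearly empty. Hfe, which encodes a membrane protein of iron homeostasis, had 0 to 3.32 sites per 100000 in NELF libraries, 0 in SPT5 and 0 to 1.06 in Integrator libraries. Trim38, a gene of the tripartite motif family, had 0 sites in all 4 NELF libraries, 2.44 per 100000 in SPT5 and 0 to 1.06 in Integrator libraries. The U6 copy had 1.04 sites per 100000 in INTS3 and 0 in the other libraries, and the pseudogene Gm11338 had 1.22 in SPT5 and 0 in the others.

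**Figure D3:**
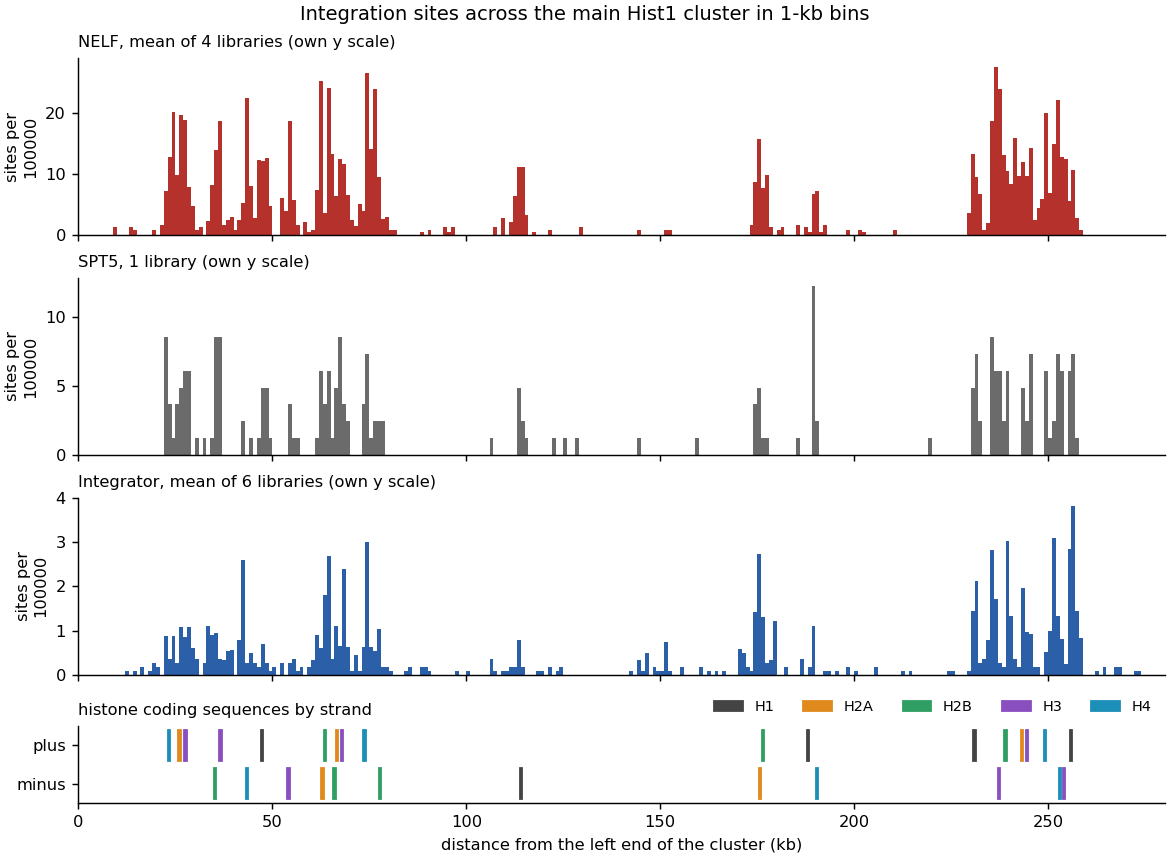
Sites per 100000 in bins of 1 kb along the 280 kb of the cluster, as the mean of 4 NELF libraries, SPT5 alone and the mean of 6 Integrator libraries, each with its own vertical scale, above the histone coding sequences by strand and subtype. Sites gather where the histone genes stand, and the wide stretches without histone genes hold far fewer sites per kb in all groups.

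The map in bins of 1 kb showed the same genes as peaks. Of the 280 bins, 182 held a site, and 82 averaged at least 1 site per 100000 and were tested with all such bins of the genome. Of these 82, 43 were higher in NELF and 0 lower by limma, against 3.62% higher and 0.0402% lower among 7468 bins of the genome. In 37 of the 82 every NELF library lay above every Integrator library, against 5.24% of the bins tested. The minimum is a mean over all 11 libraries, so that many bins were tested only through their NELF sites and these counts describe the bins that passed it. With no minimum limma called 4 of 182 bins higher in NELF, against 0.00339% of 530456 bins of the genome. The bin from chr13:23836000-23836999, past the end of Hist1h3c, ranked first of 530456 bins with a site in the genome by the NELF mean. It had 48.0 sites per 100000 in NELFE, 19.4 in NELFCD, 19.4 in NELFB and 23.2 in NELFA, 6.09 in SPT5, and 0 to 4.01 in Integrator libraries with a median of 1.56. NELFE was far above the other 3 NELF libraries here, yet each of them was above all Integrator libraries, and the log2 difference was 3.66 ± 0.69 (SE, limma). The bin from chr13:23674000-23674999, past the end of Hist1h4d, ranked second in NELF, with 48.0 in NELFE, 21.8 in NELFCD, 12.9 in NELFB and 23.2 in NELFA, 7.31 in SPT5 and 0 to 5.19 in Integrator libraries with a median of 3.60. By the mean of all 11 libraries, 8 of the 10 densest bins of the cluster had their centre downstream of a histone gene. Of the others, 1 had its centre upstream of Hist1h3c and 1 inside Hist1h4f. Sides were set by the nearest coding sequence with no limit of distance. Many less dense bins also had a downstream centre, and their share was not counted, so this shows no preference. All 10 were higher in NELF at the minimum of 1 site per 100000. The mean that picked them includes the NELF libraries, so that these 10 calls follow in part from the choice and add no support.

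Ranks within a library type show how much of the top of each genome-wide list the cluster fills. Of the 20 densest 1-kb bins of the genome, 10 lay in the cluster in NELF, 0 in SPT5 and 0 in Integrator. Of the 100 densest, 24 lay there in NELF, 1 in SPT5 and 1 in Integrator. In windows of 10 kb, 12 of 28 were tested and all 12 were higher in NELF, against 6.56% of 1356 windows of the genome. Some of these windows also met the minimum only through NELF, and with no minimum limma called 0 of 27 windows of the cluster and 0 of 196100 in the genome. The window from chr13:23830000-23839999, with Hist1h1c, Hist1h3c and Hist1h2bb, ranked first in NELF, with 160.0 sites per 100000 in NELFE, 87.2 in NELFCD, 119.5 in NELFB and 136.2 in NELFA, 43.9 in SPT5 and a mean of 13.01 ± 6.17 in Integrator (SD, n = 6). The same window ranked 15 in SPT5 and 71 in Integrator. The best Integrator rank of a window in the cluster was 38, at chr13:23850000-23859999 with Hist1h4a, Hist1h3a and Hist1h1a, where the level was 88.8 ± 45.04 sites per 100000 in NELF, 31.7 in SPT5 and 15.4 ± 7.69 in Integrator. In SPT5, the 1-kb bin of the cluster with the most sites lay past the end of Hist1h4c, with 12.2 sites per 100000.

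Position around the coding sequences differed between the groups in 1 respect. Each site was called inside a coding sequence, within 1 kb upstream of its start, within 1 kb downstream of its stop, or in a gap. The upstream share was 18.0% in NELFE, 25.3% in NELFCD, 15.6% in NELFB and 25.6% in NELFA, and 20.4% in SPT5. It was 5.88% in INTS11, 13.9% in INTS9, 2.78% in INTS3, 7.81% in NABP2, 6.13% in NABP1 and 0 of 6 sites in INIP, and every NELF library lay above every Integrator library. The means were 21.1 ± 5.08% in NELF and 6.08 ± 4.73% in Integrator, a difference of 15.1 percentage points (adjusted p = 0.0476, exact two-sided permutation test, raw p = 0.00476, the smallest of 210 splits). Upstream stretches make up 6.99% of the bases. With a library left out the difference was 13.6 to 16.9 points in all 10 cases, but the adjusted p was 0.0794 to 0.159 in 9 of them and passed only without INTS11 (0.0397, exact permutation test). Fewer splits raise the smallest possible p, to 0.0119 without a NELF library. Adjusted over 10 share tests, a share that reaches that p alone then cannot pass. These misses therefore do not measure dependence on single libraries. Without INTS11 other shares passed with it, which eased the adjustment.

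**Figure D4:**
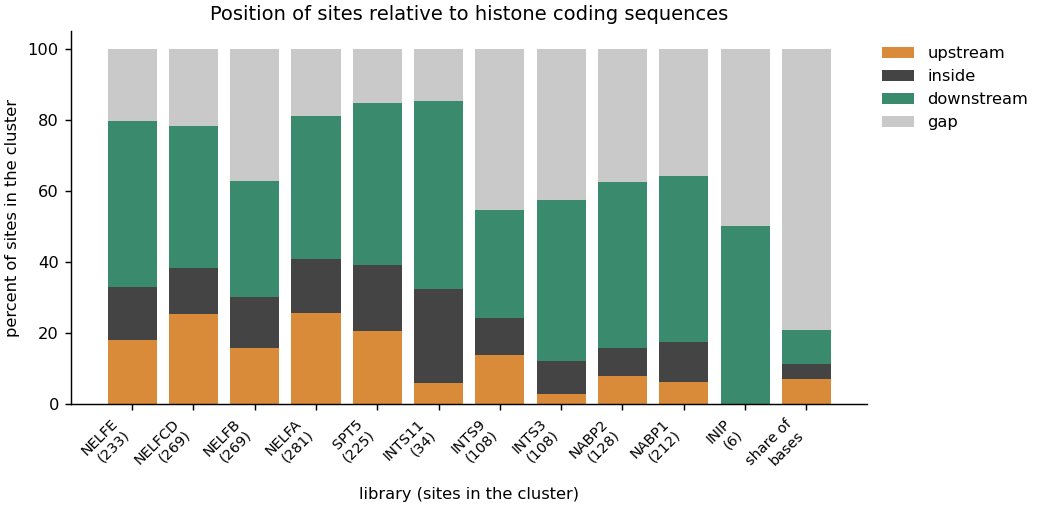
Percent of the sites in the cluster that lay upstream, inside, downstream or in a gap, for each library with its number of sites, beside the share of bases at the right. The upstream part is 15.6% to 25.6% in NELF, 20.4% in SPT5 and 0% to 13.9% in Integrator libraries, and 6.99% of bases.

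The other positions did not separate the groups. The downstream share was 40.0 ± 5.75% in NELF, 45.8% in SPT5 and 45.4 ± 7.77% in Integrator (adjusted p = 0.460, exact two-sided permutation test). The inside share was 14.5 ± 1.02% in NELF, 18.7% in SPT5 and 10.8 ± 8.65% in Integrator (adjusted p = 0.561, same test). The gap share was 24.4 ± 8.56% in NELF, 15.1% in SPT5 and 37.7 ± 12.4% in Integrator (adjusted p = 0.298, same test). Without INTS11, the Integrator library with 34 sites in the cluster, the inside, gap and H2A shares passed at an adjusted p of 0.0397 each (exact permutation test), so that these misses rest on that library. Downstream stretches make up 9.47% of the bases, coding sequences 4.34% and gaps 79.2%. Per kb of each kind, downstream stretches had 14.2 ± 5.49 sites per 100000 in NELF, 4.74 in SPT5 and 1.59 ± 0.85 in Integrator. Upstream stretches had 9.75 ± 2.49 per kb in NELF, 2.86 in SPT5 and 0.30 ± 0.20 in Integrator, and the ratio of NELF to Integrator was 32.9 upstream, 12.2 inside, 8.90 downstream and 6.88 in gaps. The ratio of downstream to upstream density was 1.92 in NELFE, 1.17 in NELFCD, 1.55 in NELFB, 1.16 in NELFA and 1.65 in SPT5. Among Integrator libraries it was 6.64 in INTS11, 1.62 in INTS9, 12.1 in INTS3, 4.43 in NABP2 and 5.62 in NABP1, with no upstream site in INIP. The ratios of INTS11 and INTS3 rest on 2 and 3 upstream sites and are imprecise.

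The profile in bins of 200 bases placed these sites more closely. In NELF the level was 15.8 ± 7.60 sites per 100000 per kb from 400 to 200 bases before the start of the coding sequence, and 8.15 ± 5.34 in the last 200 bases before it (SD, n = 4). Past the stop codon the NELF mean was 13.1 to 14.4 in each of 6 bins over 1200 bases, and 4.62 ± 2.69 from 1200 to 1400 bases. The libraries behind this mean differed: in the first 200 bases NELFE had 27.6, NELFCD 5.85, NELFB 6.13 and NELFA 16.03, and their highest bins past the stop codon were 4 different ones. SPT5 was highest in the first 200 bases past the stop codon, which hold the stem-loop, at 6.73, and had 1.84 from 800 to 1000 bases. Integrator had 2.08 ± 1.77 and 2.20 ± 1.14 in the first and second 200 bases past the stop codon and 0.15 ± 0.18 in the last 200 bases before the start (SD, n = 6). Among Integrator libraries the bin with the highest level per kb past the stop codon differed as well. It ranged from the first 200 bases in INTS11 to the bin from 1600 to 1800 bases in INTS3. In INTS3 the level there, 2.91, was nearly the same as the 2.90 from 800 to 1000 bases. On the upstream side, 4 of the 6 Integrator libraries, SPT5, NELFE and NELFCD had their highest bin from 400 to 200 bases before the start. That bin held 19 sites over all Integrator libraries, and INTS11 had only 2 sites in the whole 1 kb upstream. NELFCD had 14.2 per kb there and nearly as much, 13.98, from 1000 to 800 bases before the start.

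**Figure D5:**
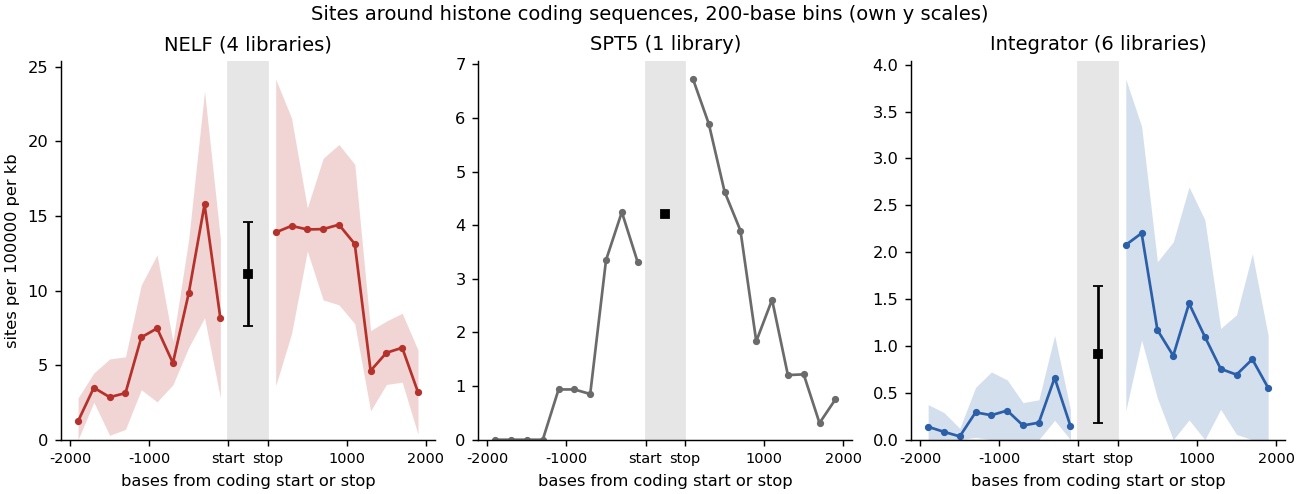
Sites per 100000 per kb in bins of 200 bases before the start and after the stop of the 29 coding sequences, with the coding sequence as a grey block, for NELF (mean of 4 libraries, SD as shading or bar), SPT5 and Integrator (mean of 6 libraries, SD), each on its own vertical scale. The NELF mean is 15.8 at its highest upstream and 13.1 to 14.4 over the first 1200 bases downstream, with a wide SD, SPT5 peaks at 6.73 just past the stop and Integrator stays at or under 0.66 upstream.

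Single genes differed in which side held the sites. Hist1h3c had 20 NELF sites upstream and 29 downstream, 4 and 4 in SPT5, and 1 and 12 in Integrator. Hist1h3e had 20 NELF sites upstream and 6 downstream, 2 and 0 in SPT5, and 0 on either side in Integrator. Hist1h4f had 16 NELF sites upstream and 10 downstream, 1 and 2 in SPT5, and 1 and 19 in Integrator. At Hist1h4a the NELF libraries had 4 sites upstream and 21 downstream, SPT5 had 2 and 4, and Integrator libraries had 1 and 20. The upstream sides of Hist1h2bg, Hist1h2bf, Hist1h2ad and Hist1h2ac held 0 sites in all 11 libraries. Each of these genes stands head to head with a close neighbour on the other strand. Sites went to the nearest coding sequence, so these upstream sides end midway to the neighbour and are far shorter than 1 kb. A count of 0 in such short stretches says little.

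Gaps, the stretches more than 1 kb from any histone coding sequence, were of 2 kinds. The 13 gaps under 10 kb, 45.7 kb in all, had 3.94 ± 1.34 sites per 100000 per kb in NELF, 0.61 in SPT5 and 0.45 ± 0.39 in Integrator (210 sites in NELF, 23 in SPT5, 147 in Integrator). The 5 gaps over 20 kb, 176 kb in all, had 0.24 ± 0.11 in NELF, 0.08 in SPT5 and 0.07 ± 0.01 in Integrator, against 0.0379 for an even spread over the genome. Among short gaps, those between 2 downstream ends had 5.06 ± 1.55 sites per 100000 per kb in NELF, 0.95 in SPT5 and 0.62 ± 0.61 in Integrator, and those between a downstream and an upstream end had 2.89 ± 1.03 in NELF, 0.36 in SPT5 and 0.31 ± 0.24 in Integrator. The 1 short gap between 2 upstream ends, 1.45 kb between Hist1h4f and Hist1h1d, had 5.07 ± 3.63 in NELF, 0 in SPT5 and 0.53 ± 0.80 in Integrator, so that its NELF mean was as high as that of gaps between 2 downstream ends, with a wider spread. The gap of 1.67 kb between the ends of Hist1h4d and Hist1h2be was the densest of all in NELF, with 22.4 in NELFE, 14.5 in NELFCD, 23.2 in NELFB and 17.9 in NELFA, 1.46 in SPT5 and 0 to 2.04 in Integrator libraries. The gap of 59.0 kb between Hist1h1e and Hist1h2ac had 0.14 ± 0.10 sites per 100000 per kb in NELF, 0.17 in SPT5 and 0.09 ± 0.04 in Integrator, so that the groups did not stand apart there. At the right end, past Hist1h1a, NELF libraries had 0.06 ± 0.07 sites per 100000 per kb, SPT5 had 0.05 and Integrator libraries had 0.12 ± 0.14, and the spread was as large as the means. The gap share of NELFB, 37.2%, was above that of the other 3 NELF libraries, which ranged between 18.9% and 21.6%.

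Sites lay on both strands of the genes. Of the sites within 1 kb of a coding sequence, the share whose strand in the file was that of the gene was 93 of 186 sites in NELFE, 46.9% in NELFCD, 40.2% in NELFB and 45.2% in NELFA, and 51.8% in SPT5. Integrator libraries ranged between 44.8% in INTS11 and 66.7% of 3 sites in INIP. The means of 45.6 ± 4.08% in NELF and 54.6 ± 7.97% in Integrator did not differ beyond their spread (adjusted p = 0.298, exact two-sided permutation test). Without INTS11 the adjusted p was 0.0476.

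Some positions recurred between libraries. Of 1745 combinations of position and strand in the cluster, 107 (6.13%) occurred in more than 1 library, against 0.638% of 826194 over the genome. Of these 107, 36 were shared by NELF libraries alone, 29 by NELF and Integrator libraries, 19 by NELF and SPT5, 11 by Integrator and SPT5, 10 by Integrator libraries alone and 2 by all groups. What made positions recur was not tested. With such sites left out, 28 of 29 histone genes were still higher in NELF.

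The most frequent bases at the junctions were the same in the cluster as on the rest of the chromosome, with other shares of T at the first base. For entries on the plus strand, counting from 1 at the first base beyond the viral end, G was the most frequent base at position 1 (44.7% of 928 sites) and C at position 5 (38.5%), with T at position -3 (46.8%) and A at position 8 (44.6%). For entries on the minus strand the pattern lay 1 base later, with G at position 2 (41.1% of 945 sites) and C at position 6 (39.2%), in the cluster and on the rest of the chromosome alike, so that the capitals in the stretches printed above can be 1 base off for that strand. With minus-strand sites moved by 1 base, G at position 1 made up 43.0% in NELF, 43.1% in SPT5 and 42.6% in Integrator, and 41.9% of 29373 sites on the rest of the chromosome. C at position 5 made up 38.8% in the cluster and 40.2% on the rest of the chromosome. T at position 1 made up 8.38% of 1873 sites in the cluster, against 13.96% on the rest of the chromosome. By group it was 7.89% in the cluster and 15.9% on the rest of the chromosome in NELF, 9.33% and 20.9% in SPT5, and 8.89% and 12.8% in Integrator, and no test of this difference was made.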

How the data were processed

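The deposited values are positions of integration and carry no count or level. Per the file headers, each entry gives the genome base next to the viral end, counted from 0, with its strand. Per the labels' protocols, junctions came from nested PCR with a linker and were read in pairs on GAIIx or HiSeq instruments; mm9 was used, per the submitters' processing notes. What aligner and filters were used is not given in the sources used here. PCR copies repeat a position, so entries with the same base and strand were counted once, which left 831994 sites of 873534 deposited entries.

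Genes came from an mm9 annotation and sequences from the same assembly. Positions in the text count from 1. Position classes use coding sequences, with 1 kb on each side. Shares and density were compared with exact permutation tests over 210 splits of 4 NELF and 6 Integrator libraries. Genes, 1-kb bins and 10-kb windows averaging at least 2, 1 and 5 sites per 100000 were compared with limma 3.58.1 (R 4.3.3, trend and robust) on log2(sites per 100000 + 1), with SPT5 as its own group and Benjamini-Hochberg adjustment at 0.05. This scale understates the change of low features. Limma was tried on simulated gene counts, with a spread between libraries that was set and not taken from these data. The permutation test was checked on fixed values only.

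The region, lists and tests were chosen with earlier results of these data known. Named histone genes were, in each subtype, the 2 with the most and the 1 with the fewest sites within 1 kb of the coding sequence (mean of 11 libraries), with Hist1h1t and all genes that code for no histone; named bins were the 10 with the most sites. Other histone genes were named after their values were seen.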

Additional observations from a re-analysis of the deposited data

Results flagged for a closer look

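Within the groups of 4 NELF and 6 Integrator libraries, 88 sets of values were searched for a library far from the rest, and 12 were found. Chance gives about 1 in 20, and sets of low counts, with most libraries at or near 0, exceed the limit easily.

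Among shares, NELFB stood apart in NELF with the highest gap share, 37.2% of its sites in the cluster, and the lowest H4 share, 16.6% of its sites near genes. INTS9 had the lowest downstream share of the Integrator libraries, 30.6%, and INTS11 the highest H2A share, 34.5% of 29 sites.

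Among genes, INTS11 had 5.89 sites per 100000 at Hist1h2af and 14.7 at the 5S_rRNA copy, NABP2 had 2.27 at Hist1h3e, and INTS3 had 1.04 at the U6 copy, each the highest of the Integrator libraries.

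Among 1-kb bins, NELFE had 48.0 sites per 100000 in the bin past Hist1h3c at chr13:23836000-23836999, above the other NELF libraries. NABP2 had 11.3 in the bin past Hist1h2bg at chr13:23664000-23664999 and 10.2 in the gap past Hist1h3c at chr13:23835000-23835999. INTS11 had 5.89 in the bin past Hist1h2af at chr13:23626000-23626999. In all 4 bins limma called NELF higher, and all 4 were picked by a mean that includes the NELF libraries.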

How the results depend on the processing

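No paired analysis was possible because the labels give the libraries no replicate numbers and each protein has 1 library. The density difference of 833 sites per 100000 was 741 to 838 under 7 other ways of counting sites and 727 to 923 when a library was left out. The 28 higher histone genes were 21 to 28 under 16 other settings and 25 to 28 with a library left out. The 43 higher 1-kb bins were 24 where the first number had to be at least 5, 28 at a minimum of 0.5 sites, 4 with no minimum, and 32 to 53 with a library left out. The 12 higher 10-kb windows were 11 to 12 with a library left out, and 0 by limma with no minimum. No minimum takes in nearly empty features of the whole genome. With a library left out, differences in percentage points were 1.45 to 6.74 inside, 13.6 to 16.9 upstream, -17.8 to -10.8 in gaps, 2.06 to 8.96 for H2A, -4.37 to 0.92 for H4 and -10.9 to -6.55 for the sense share. Without INTS11 the inside, gap, H2A and sense shares passed. The upstream share kept its call without INTS11, and passed under the 9 settings that kept all libraries. It missed without each other library, where fewer splits keep a share from passing alone over 10 share tests. The H2B share turned to 0.27 with shared sites left out and the H4 share to 1.05 with 2 kb around genes; the cause was not tested. Under settings that kept all libraries, Hist1h1a kept its call in 12 of 16, Hist1h2bg in 13 of 16, 5S_rRNA in 13 of 15, Gm11398 in 5 of 15, and Hist1h4f, Hist1h4c and Hist1h2bb in 15 of 16 each, while Hist1h1t passed in 1 of 13. Moving minus-strand sites by 1 base left 28 genes, 43 bins and 12 windows. Shared sites, the shift of minus-strand sites and gene extents were chosen as settings after seeing the data. INIP, with 6 sites in the cluster, and INTS11, with 34, have wide counting errors.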
